A study of Mus musculus with 35 samples.

Results

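G-NHA9Midi-21FGAA, an mEGFP-tagged NUP98-HOXA9 construct that keeps no FG motif, was compared with the empty vector in mouse lin- hematopoietic stem and progenitor cells (HSPCs). The members were all libraries that the labels give as genotype G-NHX9-midi-21FGAA or Empty, 5 of each, so that 10 of the 35 libraries of the series form the comparison, and 15 more, of the genotypes G-NHX9-midi, G-NHX9-DDNA and G-NHX9-21FGAA at 5 each, serve for direct comparisons of the construct. HSPCs of C57Bl/6 mice, which the study drew from both sexes, were transduced with a lentivirus, sorted for its fluorescent proteins and grown for 1 week in methylcellulose. The medium held growth factors for myeloid and erythroid cells, with 10 ng/mL GM-CSF. Cells of the construct were sorted for mCherry and mEGFP, whereas cells of the empty vector carried mCherry alone, with no mEGFP and no homeodomain. Both conditions thus share the vector, the sort for mCherry and the culture, and they differ in mEGFP, in the second sort gate and in the fusion. The labels give 8 weeks of age for all libraries of the 4 constructs and for replicates 1 to 3 of the empty vector, and 9 and 10 weeks for its replicates 4 and 5. These ages step up over consecutive entries of the labels, as a filled spreadsheet column would, so the split by age may not be one of true ages. RNA was taken from bulk populations of the first plating. The methods give transduction in triplicate while 5 libraries per condition are labelled, and it was not stated whether each came from separate mice or cultures, so p-values measure the spread between libraries. In such bulk samples, fewer cells of a type and less RNA per cell cannot be told apart.

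NUP98 is a nucleoporin whose disordered stretch holds phenylalanine-glycine (FG) repeats. In leukemia this stretch can be fused to the homeodomain of HOXA9, a transcription factor of the HOX family that is active in stem and progenitor cells and is shut down as blood cells mature. The FG repeats bring proteins together through weak contacts, and the homeodomain binds DNA. G-NHA9Midi holds the C-terminal FG stretch joined to the homeodomain, and in G-NHA9Midi-21FGAA every FG pair of that stretch is replaced by AA. The question put to this comparison was what remains of the response to the fusion when its homeodomain is expressed with no FG motif. HSPCs in this culture give rise to macrophages, neutrophils and mast cells and, for a time, to red cell and platelet precursors, each of which carries its own set of transcripts.

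The 10 libraries held 31559914 to 75810659 counts each. Levels are given as CPM, counts of a gene relative to the library total after scaling by TMM, without a correction for gene length, so that they are compared only for the same gene between conditions. Transcripts of monocytes and macrophages (34678 to 48099 CPM summed over 21 genes in the empty vector) and of late neutrophils (18469.9 to 25245 CPM over 17 genes) were abundant. Of 15 lymphoid genes, 9 were too low to be tested (Cd3e, Cd79a, Ms4a1 and Pax5 among them), as were Cdh5, Col3a1 and Cxcl12 of endothelium and stroma. Among stem and progenitor markers, Cd34 and Kit were present in every library whereas Flt3 stood at no more than 0.332 CPM. Replicate 1 of G-NHA9Midi-21FGAA lay nearest to the empty vector on the first principal component (5.22, against 13.2 to 23.5 in replicates 2 to 5 and -23.7 to -8.82 in the empty vector), and the genes named below that gain or lose the call without it include Alas2, Meis1, Hoxa6, Arg1 and Chil3. Transcripts of Xist (364 to 886 CPM in the empty vector, 296 to 729.7 CPM with the construct) and of the Y-linked gene Ddx3y (8.63 to 26.1 and 4.32 to 27.1 CPM) were found together in all 10 libraries, and none of the 5 sex-linked genes tested passed the threshold (adjusted p < 0.05 by edgeR's quasi-likelihood test). At an unadjusted p under 0.05 that count was also 0, as it was with DESeq2.

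Against the empty vector, 2903 of 17166 genes tested (16.9%) passed the threshold with G-NHA9Midi-21FGAA, 1646 (9.59%) higher and 1257 (7.32%) lower. Genes of red cells, mast cells, DNA replication and mitosis were higher, and targets of the stress factor ATF4, lysosomal genes and some genes of mature neutrophils and macrophages were lower. Most differences were small: 391 genes (2.28%) were higher and 208 (1.21%) lower by more than 1 on the log2 scale, and the median over all genes was -0.02. Values in parentheses after a gene are log2 differences, G-NHA9Midi-21FGAA minus the other condition, with ± SE where a second value follows. Without TMM scaling that median moved to 0.12 and the calls to 3272 higher and 667 lower, so that the balance of rises and falls depends on the scaling. With only the 3 empty vector libraries labelled 8 weeks, 1456 genes passed, 698 higher and 758 lower. In a fit blocked by replicate number 4352 passed, 2268 higher and 2084 lower.

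**Figure D1:**
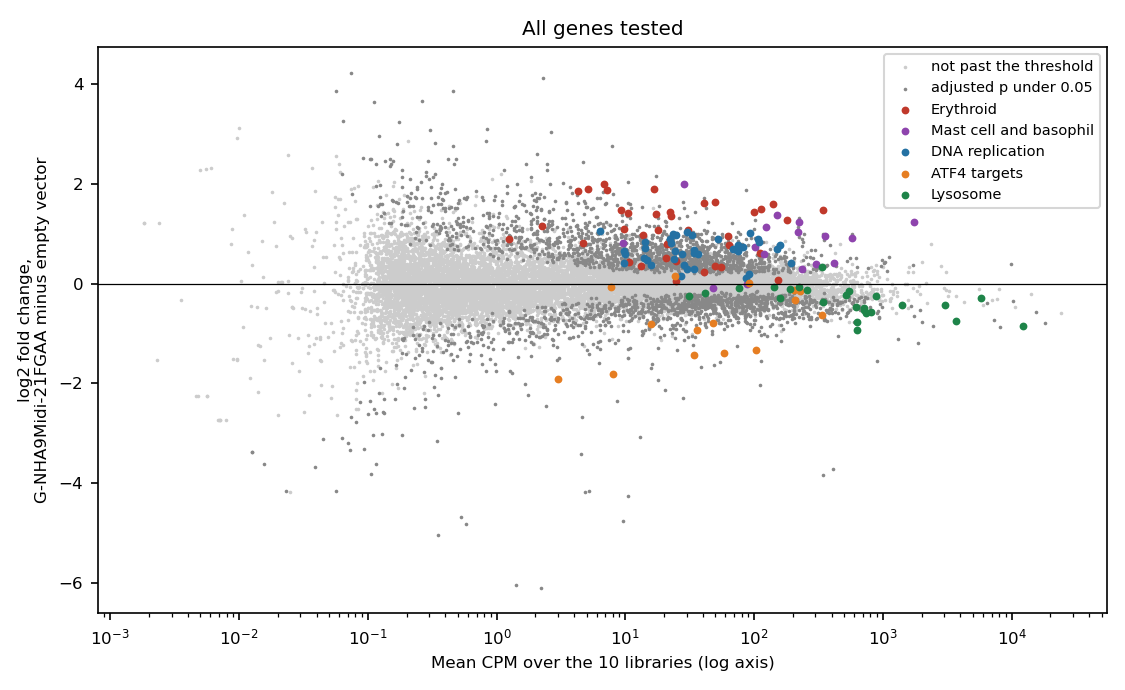
Mean level of every gene tested over the 10 libraries (x, CPM on a log axis) against its log2 fold change, G-NHA9Midi-21FGAA minus empty vector (y). Grey points are genes that did (dark) or did not (light) pass the adjusted p threshold, and colored points are members of 5 gene lists: the erythroid, mast cell and DNA replication genes lie mostly above 0, and the ATF4 targets and lysosomal genes mostly below.

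Hoxa9 did not pass the test against the empty vector. It stood at 1.08, 1.26, 0.693, 0.830 and 1.01 CPM in replicates 1 to 5 of the empty vector and at 1.23, 2.18, 1.19, 0.730 and 0.242 CPM in those of G-NHA9Midi-21FGAA, a log2 difference of 0.16 ± 0.39 (SE; edgeR adjusted p = 0.82) whose sign turned under some alternatives (-0.26 to 0.47). The ranges overlapped, and the construct's lowest library lay below all 5 of the empty vector. Nup98 was at 129 ± 12.5 CPM (mean ± SD, n = 5) in the empty vector and 137 ± 21.2 CPM with the construct, which did not pass the test.

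Of 21 Hox cluster genes tested, 2 (9.52%) were higher, beside 9.59% of all genes, and 3 (14.3%) lower, beside 7.32%, with a median log2 difference of -0.16. Hoxa5 rose from 0.192, 0.0918, 0.139, 0.266 and 0.214 CPM in the empty vector to 0.578, 0.746, 0.372, 0.671 and 0.497 CPM, a log2 change of 1.69 ± 0.35 with no overlap. Hoxa6 also passed the test, but it had at most 2 counts in any empty vector library and 5 to 8 with the construct, so its rise is given as at least 1.47-fold against a limit of 3 counts per library, and the call was lost in 12 of 19 alternatives. Hoxa7, another gene of the same cluster, was at 0.365 to 1.24 CPM and 0.395 to 1.90 CPM and did not pass (edgeR adjusted p = 0.0504), but it was called in 8 of 22 alternatives. In a fit blocked by replicate number, with DESeq2 or without TMM scaling 4 Hox genes were higher, with Hoxa7 and Hoxa3 called under the block, and without any one of replicates 1, 3 and 4 of the empty vector and 2, 3 and 4 of the construct 1 was. In the fit to both conditions alone 1 was lower. Hoxb4, which is linked to stem cell self-renewal, fell by 0.70 on the log2 scale, from a range of 2.81 to 4.48 CPM to a range of 1.42 to 2.90 CPM with 1 overlapping library in each condition, and Hoxb3 fell by 0.88. Hoxb8 passed as lower at 0 to 6 counts in the empty vector and 0 or 1 with the construct, which is at least 1.34-fold against the same limit. The other 16 Hox genes, all with means under 2 CPM, did not pass.

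The HOX proteins bind DNA together with TALE partners of the MEIS, PBX and PREP families. Pbx3, a partner of HOXA9, rose from 6.86, 5.35, 6.42, 7.40 and 6.09 CPM to 8.62, 8.12, 9.55, 8.64 and 12.8 CPM, a log2 change of 0.58 ± 0.14 with every construct library above every empty vector library. Pbx2 fell by 0.55 (63.7 to 75.6 CPM against 40.2 to 57.1 CPM), also with no overlap. Pbx4 (0.78) and Pknox1 (0.32) also passed, but their calls were lost in 11 of 21 and 10 of 22 alternatives. In all, 3 of 10 TALE genes tested were higher (30%, beside 9.59% of all genes) and 1 lower (10%, beside 7.32%). Without replicate 3 of the empty vector or replicate 3, 4 or 5 of the construct, 1 was higher. Meis1, with HOXA9 a driver of self-renewal in leukemia, was at 13.4, 15.3, 15.9, 14.5 and 9.30 CPM and at 13.9, 18.8, 15.8, 16.8 and 26.9 CPM and did not pass (edgeR adjusted p = 0.083), although it was called without replicate 1 of the construct (0.53) and without TMM scaling.

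Among genes of at least 5 CPM with no overlap between the libraries of both conditions, the largest rise was in Serpina3b (chr12:104127996-104139545 on mm10), a serine protease inhibitor of the Serpina3 cluster. Its level was 0.744, 1.95, 2.01, 3.78 and 1.74 CPM in the empty vector and 6.35, 11.5, 8.24, 16.9 and 25.3 CPM with G-NHA9Midi-21FGAA, a log2 change of 2.76 ± 0.44 (edgeR adjusted p = 0.00027). It was the sole member of its cluster to pass, with 2 passing without replicate 1 of the construct: Serpina3f, Serpina3g, Serpina3h and Serpina3i lay between -1.12 and 0.45 on the log2 scale. Ccl17, a chemokine made by dendritic cells and macrophages that draws in T cells, rose from 8.73, 6.20, 3.91, 3.15 and 9.73 CPM to 12, 13, 19.6, 65.5 and 31.8 CPM (2.16 ± 0.44), with the construct's replicates 4 and 5 far above its replicates 1 and 2. Of 12 CC chemokines tested, Ccl17 alone was called (8.33% higher, beside 9.59% of all genes), against 3 with the replicate block and 2 without replicate 1 of the empty vector.

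Cd34, the surface sialomucin by which stem and progenitor cells are recognized, had the lowest adjusted p of the 10 largest rises. It was at 44.1, 38.3, 45.5, 34 and 22.6 CPM in the empty vector and at 71, 125, 146, 165 and 168 CPM with the construct (1.87 ± 0.19; edgeR adjusted p = 1.0e-07), and even the construct's lowest library stood well above the empty vector's highest. Add2, the beta subunit of the membrane skeleton protein adducin, rose from 5.90, 6.86, 3.10, 2.32 and 2.54 to 7.46, 18.7, 15.3, 17.2 and 26.3 CPM (2.03 ± 0.37). Ddc, which makes dopamine and serotonin by decarboxylation, rose from 5.52, 4.71, 4.51, 3.78 and 3.06 to 7.99, 9.45, 13.7, 16.2 and 17 CPM (1.57 ± 0.23). Both sets of libraries were apart, although Add2 in replicate 1 of the construct was close to the empty vector's highest library. The remaining rises of this rule were Arhgap20, a GTPase-activating protein (1.79 on the log2 scale), Nxpe2 (1.71), Atp8b5, a phospholipid flippase (1.63), Pcyt1b of phosphatidylcholine synthesis (1.60) and Car8, of the carbonic anhydrase family (1.55). Pcyt1b was close to constant in the empty vector (5.23 to 5.58 CPM) and at 9.34 to 26.8 CPM with the construct.

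Outside the rule because of its low level, and picked after its values were seen, Epha3 (chr16:63543534-63864175 on mm10), an ephrin receptor kinase, went from 0.552, 0.413, 0.0693, 0.0996 and 0.0612 CPM to 2.77, 3, 4.91, 6.12 and 5.08 CPM (4.12 ± 0.40; edgeR adjusted p = 9.5e-08). All 5 construct libraries lay far above the highest of the empty vector.

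The stretches of 250 bases before the start sites of Serpina3b (chr12:104127746-104127995, plus strand), Ccl17 (chr8:94810203-94810452, plus strand) and Cd34 (chr1:194938571-194938820, plus strand), from RefSeq on GRCm38.p6, are shown because these genes had the largest rises or, for Cd34, the lowest adjusted p among them. Capitals mark matches to TTTAT, the core of the site bound by HOXA9 (ATAAA on the other strand), and to the STAT consensus TTCNNNGAA, searched on both strands.
Serpina3b: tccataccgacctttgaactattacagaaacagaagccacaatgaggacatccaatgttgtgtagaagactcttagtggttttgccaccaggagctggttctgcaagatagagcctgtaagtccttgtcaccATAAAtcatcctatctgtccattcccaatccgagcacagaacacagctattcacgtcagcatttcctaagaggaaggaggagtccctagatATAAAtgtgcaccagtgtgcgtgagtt
Ccl17: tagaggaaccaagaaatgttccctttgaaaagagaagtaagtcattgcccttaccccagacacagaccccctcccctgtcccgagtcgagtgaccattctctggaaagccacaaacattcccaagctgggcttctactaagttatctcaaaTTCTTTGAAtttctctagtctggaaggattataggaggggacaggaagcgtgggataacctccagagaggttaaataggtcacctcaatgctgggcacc
Cd34: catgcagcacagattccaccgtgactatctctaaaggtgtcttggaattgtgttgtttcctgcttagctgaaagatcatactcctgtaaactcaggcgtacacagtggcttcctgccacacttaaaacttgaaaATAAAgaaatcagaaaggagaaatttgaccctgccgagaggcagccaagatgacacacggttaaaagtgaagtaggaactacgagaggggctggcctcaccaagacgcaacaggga
TTTAT occurs in 2 places before Serpina3b (bases -118 to -114 and -27 to -23 from the start), once before Cd34 (-116 to -112) and not in this window of Ccl17, which holds the STAT consensus at -99 to -91. Of the 9 genes with the largest rises that have a promoter in the table, 6 (66.7%) hold TTTAT in this window, against 28.4% of the 10941 tested genes with a promoter, and 1 (11.1%) holds the STAT consensus, against 7.35%. Only 3 of the 10 genes with the largest falls have an entry (Entpd3, Mgl2 and Retnlg), and neither motif is in their windows. Such matches describe letters and not binding.

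**Figure D2:**
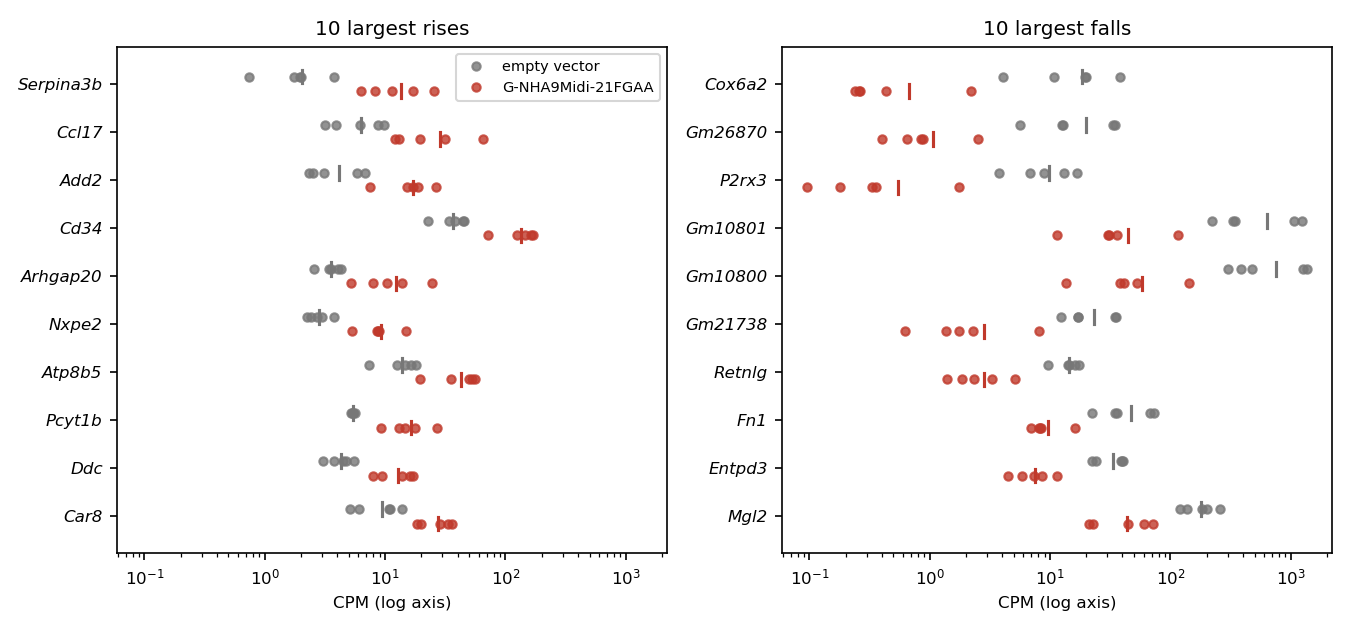
Level of the 10 genes with the largest rises (left) and the 10 with the largest falls (right) in each library (x, CPM on a log axis). Points are libraries, grey for empty vector and red for G-NHA9Midi-21FGAA, and short lines are means of 5 libraries. By the rule that chose them no gene has overlapping libraries, and the predicted Gm genes spread widely within a condition.

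Of the 35 lists, the erythroid list held the most members called at a log2 change of at least 1, with 19. Of 37 genes of red cells, 24 were higher and none lower, where 9.59% of all genes were higher, and all 37 had a fold change above 0, with a median of 1.10 on the log2 scale. Summed over the list, the libraries of the empty vector reached 1599.6, 1150.05, 1054, 946 and 1164 CPM and those of G-NHA9Midi-21FGAA 1429, 2749, 2505, 2253 and 3346 CPM. Replicates 2 to 5 of the construct were above every empty vector library, and its replicate 1 lay within their range. Without both libraries numbered 1, 30 members were called, and with only the empty vector libraries labelled 8 weeks, 12 were.

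The regulators rose together. All 5 tested were higher: Gata1, the master factor of red cells, megakaryocytes and mast cells (19.8 to 41.4 CPM in the means, 1.07 on the log2 scale), Klf1, which turns on adult globin (5.72 to 15.4 CPM, 1.42), Tal1 (87.2 to 134 CPM, 0.62), Gfi1b (6.19 to 13.3 CPM, 1.10) and the erythropoietin receptor Epor (3.38 to 5.96 CPM, 0.82). Tal1 was at 76.1, 86.6, 93, 91.9 and 88.2 CPM in the empty vector and 80.6, 134, 133, 147 and 175 CPM with the construct, with replicate 1 alone inside the lower range.

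Of 12 genes of the red cell membrane and its skeleton, 10 rose. Among them were Slc4a1, Ank1, Epb42, Sptb, Rhag, Rhd, Ermap and Kel, which rose by 1.36 (Sptb) to 2.00 (Epb42) on the log2 scale. Epb42, which links band 3 (Slc4a1) to the skeleton, went from 5.42, 2.32, 1.73, 1.26 and 2.85 CPM to 4.16, 11.2, 11.4, 9.88 and 18 CPM, and Slc4a1 itself from 52, 13.2, 13.7, 12.7 and 30.1 to 29.7, 78.3, 75.5, 85 and 107 CPM. In both genes replicate 1 of the empty vector was its highest and replicate 1 of the construct its lowest, and these overlapped. The call of Slc4a1 was lost in 10 of 22 alternatives. Epb41 and Aqp1 were at 0.08 and 0.78 and did not pass. Dmtn and Trim10, picked after their values were seen, are a skeleton protein and a tripartite motif protein of late erythroid cells, and rose by 2.60 and 2.44. Neither overlapped, although Dmtn rounded to 1.13 CPM in both libraries numbered 1.

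Globins, which carry oxygen, were at 324 ± 149 CPM in sum (mean ± SD, n = 5) in the empty vector and 919 ± 329 CPM with the construct. Hbb-bt rose from 115, 73.6, 54, 41.7 and 62.2 to 91.3, 278, 233, 193 and 250.5 CPM (1.59 ± 0.33), again with the replicate 1 libraries overlapping. Hba-a1 (1.44) and Hba-a2 (1.61), near-identical copies between which the counting could divide reads, also passed, the latter losing its call in 9 of 22 alternatives, and Hbb-bs (1.47; edgeR adjusted p = 0.073) did not. Among 8 enzymes of heme synthesis, 3 rose, Cpox (0.96) and Alad (0.96) among them. Alas2, the rate-limiting erythroid enzyme, was at 23.7, 6.93, 8.48, 6.94 and 14.9 CPM and 12.9, 32.3, 34, 31.8 and 52.5 CPM (1.42 ± 0.53; edgeR adjusted p = 0.059), a larger difference than in Cpox or Alad and a wider spread. It was called in 7 of 22 alternatives, among them those without replicate 1 of the empty vector or of the construct.

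Tfrc, the transferrin receptor through which red cell precursors and dividing cells take up iron, was 1 of 4 erythroid genes with no overlap (5.98% of all genes were higher with no overlap). It was at 154, 96.7, 113, 77.1 and 90.1 CPM in the empty vector and 232, 269, 261, 225 and 298 CPM with the construct (1.28 ± 0.25; edgeR adjusted p = 0.0011). Car2, the carbonic anhydrase of red cells, rose from a range of 34.1 to 84.4 CPM to a range of 79.2 to 266 CPM (1.49). Genes of platelets and megakaryocytes, which share Gata1 and Tal1, were not called: none of 13 passed in edgeR, the median was 0.08, and Pf4 was at 200.03 to 415 and 255 to 509 CPM. At an unadjusted p under 0.05 the count was 1 (Selp, 0.90), with DESeq2 it was 0, and with the replicate block 1 gene was higher.

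The stretch before Epb42 (chr2:121036878-121037127, minus strand) is shown as that of the gene with the largest change on the erythroid list, which does not hold Dmtn or Trim10, with a match to AGATAA, a site of the GATA factors, in capitals (TTATCT on the other strand).
Epb42: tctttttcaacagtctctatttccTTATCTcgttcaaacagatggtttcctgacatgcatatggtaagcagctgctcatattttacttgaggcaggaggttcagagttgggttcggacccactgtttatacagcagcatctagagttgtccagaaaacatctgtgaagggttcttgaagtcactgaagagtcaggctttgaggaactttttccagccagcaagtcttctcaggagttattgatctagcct
AGATAA lies at -226 to -221 there. It was searched on both strands after the erythroid counts were seen, and it is found in this window of 8 of 27 erythroid genes with an entry (29.6%) and 5 of 13 mast cell genes (38.5%), against 7.8% of tested genes. It is also in that of 2 of the 9 genes with the largest rises (22.2%). TTTAT is in this window of 10 of the 27 erythroid genes (37%) and 10 of the 13 mast cell genes (76.9%), against 28.4%.

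Mast cell and basophil genes rose as well, 8 of 16 with none lower and a median of 0.86 on the log2 scale. All 4 receptors passed. Kit, the receptor of stem cell factor on progenitors and mast cells, rose from 87.3, 72.3, 88.2, 95.5 and 73.6 CPM to 101, 149, 203, 345 and 284 CPM (1.38 ± 0.26; edgeR adjusted p = 0.00078), with no overlap and the highest level in replicate 4. Fcer1a and Ms4a2, subunits of the IgE receptor, rose by 1.23 and 1.14, and Il1rl1, the receptor of interleukin-33, by 0.96. Fcer1a was at 62.4 to 199.5 CPM in the empty vector and at 127 to 413 CPM with the construct, and its replicate 1 fell inside the empty vector's range.

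Of 9 proteases, 4 rose. Cpa3, the mast cell carboxypeptidase, was at 1689.8, 1171, 1099, 747 and 476 CPM in the empty vector and at 1384, 2080.4, 2763, 3402 and 2619 CPM with G-NHA9Midi-21FGAA (1.24 ± 0.25). Cma1 (0.91), Mcpt2 (1.03) and Mcpt1 (2.00) were the others, and the call of Cma1 was lost in 13 of 22 alternatives, the replicate block among them. Tpsab1, Tpsb2, Mcpt4, Mcpt8 and Prss34, from -0.08 to 0.82, did not pass, nor did the regulators Gata2 (0.59) and Mitf (-0.01) and the histamine enzyme Hdc (0.29). Mcpt8 and Prss34 mark basophils, and Cpa3, Cma1 and Mcpt1 are abundant in mast cells. Tpsab1, Tpsb2 and Mcpt4, which did not pass, are mast cell proteases too, so these calls do not separate the cell types. With the empty vector libraries of 8 weeks alone, 4 of 16 genes were called.

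Stem and progenitor genes were higher in 5 of 16 (31.2%), among them Cd34 and Kit. Angpt1, a ligand of the TIE2 receptor, was at 7.93 to 27.4 and 21.9 to 38.3 CPM (0.85), and Myb, a factor of immature blood cells, at 22.8 to 41 and 32.3 to 60.3 CPM (0.64). Mecom, a stem cell factor, rose from 1.31 to 2.63 CPM in the means (1.01). With the 8 week libraries of the empty vector alone, 2 were called. Hlf (-0.47), Procr (0.49), Slamf1 (0.16), Ly6a (-0.30) and Flt3 (-0.72) did not pass, and Kit and Gata2 are also on the mast cell list. Of 10 eosinophil genes, 1 was higher (10%, beside 9.59% of all genes) and 2 with the replicate block. Il5ra, the receptor of interleukin-5, rose from a range of 0.730 to 2.05 CPM to a range of 2.26 to 3.36 CPM (1.25) with no overlap.

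**Figure D3:**
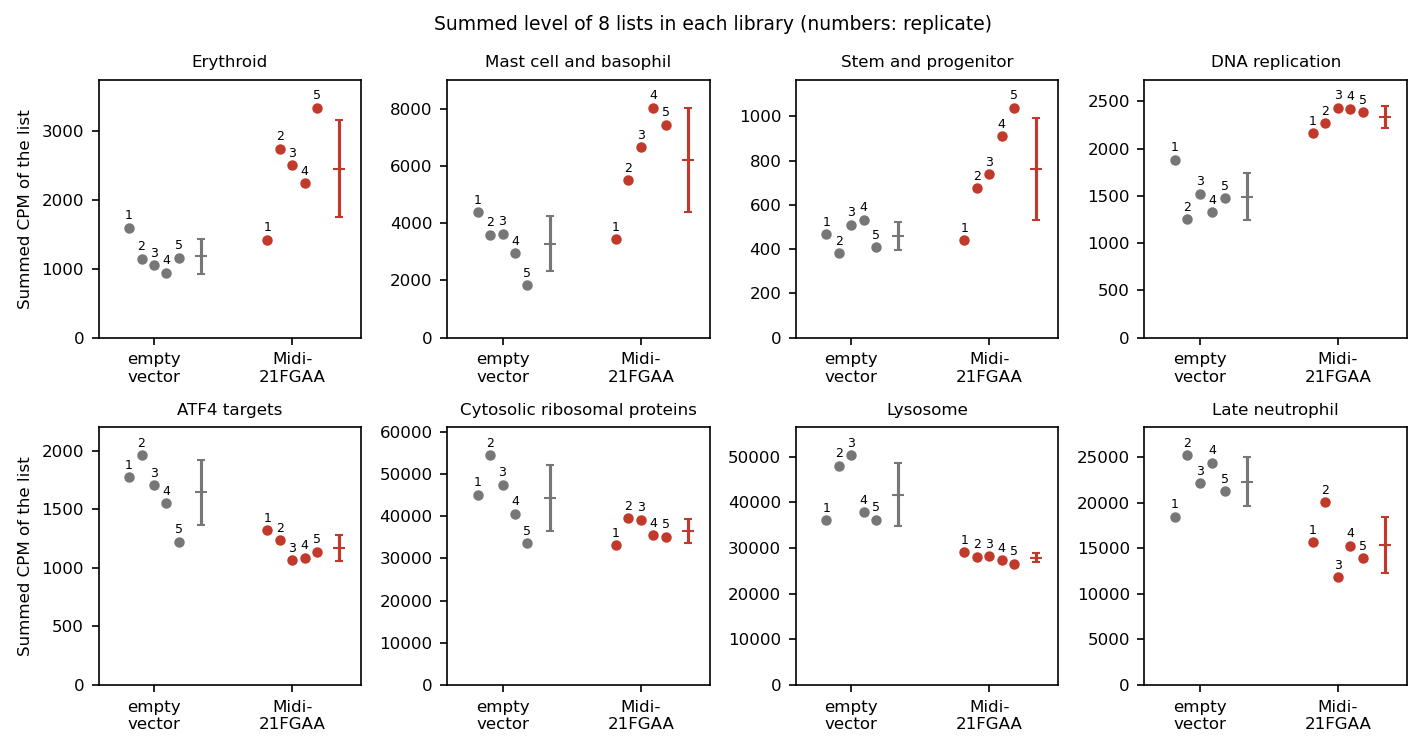
Summed CPM of 8 gene lists (y, linear axis from 0) in the libraries of the empty vector (grey) and G-NHA9Midi-21FGAA (red). Points carry the replicate number, and the bars at the right of each group are the mean and SD of 5 libraries. In the erythroid, mast cell and stem cell panels replicate 1 of the construct lies within the range of the empty vector, and in the DNA replication and lysosome panels the conditions do not overlap.

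Genes of cell division were higher across several lists. Of 38 genes of DNA replication, 33 were higher, none was lower and 28 had no overlap between libraries, beside 5.98% of all genes. The summed level was 1883, 1251, 1522, 1326 and 1477 CPM in the empty vector and 2160.2, 2265, 2432, 2421 and 2382 CPM with the construct. All construct libraries were above all empty vector libraries, and among the latter replicate 1 was the highest. Mcm3 and Mcm6 of the replicative helicase rose by 0.84 and 0.70 on the log2 scale, Rrm1, which makes deoxynucleotides, by 0.78, and the sliding clamp Pcna by 0.42. Mcm3 was at 102, 59.9, 81.6, 70.4 and 77.5 CPM and 123, 133, 149.5, 147 and 147 CPM.

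Mitotic genes followed, with 23 of 30 higher and a median of 0.66. Their sum was 2115, 1041, 1488, 1212 and 1503 CPM in the empty vector, from a low in replicate 2 to a high in replicate 1, and 2275, 2374, 2474, 2246 and 2409 CPM with the construct. Top2a, which untangles replicated DNA, was at 201 to 435 CPM and 422 to 527 CPM (0.77), Ccna2 (cyclin A) rose by 0.84 with no overlap, and Kif11 and Tpx2 of the spindle rose by 0.74 and 0.64. The construct libraries lay close together and the empty vector libraries did not. The count fell to 11 without replicate 2 of the empty vector, to 12 without its replicate 4 and to 5 with the 8 week libraries alone.

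The clustered histone genes, transcribed in S phase, were higher in 19 of 65 (29.2%), and all 65 fold changes were above 0 (median 0.73). Examples were Hist1h1a (0.92), Hist1h3f (0.75), Hist2h2ac (0.74) and Hist1h4a (0.69). Histone genes are near-identical copies, between which reads can be divided. Their count moved between 7 (without replicate 3 of the construct) and 30 (without its replicate 1) when single libraries were left out, and the leaving out of any other library except replicate 3 of the empty vector and replicate 5 of the construct moved it by over 1.5 times too, to between 8 and 29. With the 8 week libraries alone 1 histone gene passed, and with the replicate block 30.

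Nucleolar factors and subunits of RNA polymerase I, which build ribosomes, rose in 22 of 39 (median 0.43), among them Nop56 (73.2, 63.2, 56.8, 46.7 and 46.6 CPM against 93.2, 88.6, 103, 87.1 and 102 CPM, 0.72), Heatr1 (0.56), Ddx21 (0.52) and Mybbp1a (0.52), whose call was lost in 12 of 22 alternatives. With the 8 week libraries alone, 8 were called. The ribosomal proteins themselves went the other way. Of 78 cytosolic ribosomal protein genes, 24 (30.8%) were lower and none higher, 77 had a log2 fold change below 0, and the median was -0.27. Rpl23 was at 898, 1191, 1029, 857 and 663 CPM and 635, 749, 733, 550.5 and 662 CPM (-0.48), and Rps24, Rps3a1 and Rps9 fell by 0.32, 0.29 and 0.28, calls that were lost in 10, 12 and 12 of 22 alternatives. Rps12 (-0.23) and Rpl12 (-0.19) did not pass.

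These falls were small and their number was unstable. It was 8 without TMM scaling, 46 with the 8 week libraries of the empty vector alone, 5, 8 and 43 without replicates 2, 3 and 5 of the empty vector, and 10, 8 and 9 without replicates 1, 4 and 5 of the construct. In the sums, replicate 5 of the empty vector (33569.6 CPM) was below 4 of the 5 construct libraries, which reached 33120.5 to 39593 CPM. Mitochondrial ribosomal proteins split into 6 higher and 4 lower of 78, near the share of all genes, and with no TMM scaling 28 were higher and with the 8 week libraries none. The count of lower genes was 2 without replicate 2 or 3 of the empty vector or 1 or 4 of the construct, and 1 without its replicate 5. Of 75 nuclear genes of oxidative phosphorylation, 3 (4%) were higher, beside 9.59% of all genes, and 6 (8%) lower, beside 7.32%. Among them were the ATP synthase subunits Atp5a1 and Atp5b (0.32 and 0.31) and, downward, Cox4i1 (-0.31) and Atp5h (-0.28). Without TMM scaling these counts turned to 9 higher and 2 lower. The count of higher genes was 0 without replicate 4 of the empty vector and 1 without its replicate 5 or replicate 3 or 4 of the construct, and that of lower genes was 3 without replicate 2 or 3 of the empty vector or 1, 4 or 5 of the construct. The calls of Atp5b and Atp5h were each lost in 9 of 22 alternatives.

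A list of nuclear pore subunits, the family that NUP98 belongs to, also held the exportin Xpo1, which is not a pore subunit. Of its 28 genes, 13 were higher with none lower (median 0.30). Nup153, Nup205, Nup50 and the exportin Xpo1 rose by 0.44, 0.32, 0.26 and 0.38, of which Xpo1 lost its call in 12 of 22 alternatives and Nup50 in 6, and 6 members were called with the 8 week libraries alone. Enzymes of sterol and fatty acid synthesis were higher in 9 of 29, and in 14 when replicate numbers were blocked. Cyp51 was at 138, 101, 123, 107 and 118 CPM and 182, 164, 175, 180.4 and 158 CPM (0.55), and Sqle (0.44), Lss (0.77) and Fasn (0.83, lost in 7 of 22 alternatives) rose with it. Of 21 glycolysis genes, 6 were higher, such as Ldha (725 to 1055 and 1099 to 1242 CPM, 0.43) and Tpi1 (0.46), but the count fell to 1, 2, 2 and 3 without replicates 2, 3 and 4 of the empty vector and replicate 4 of the construct.

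**Figure D4:**
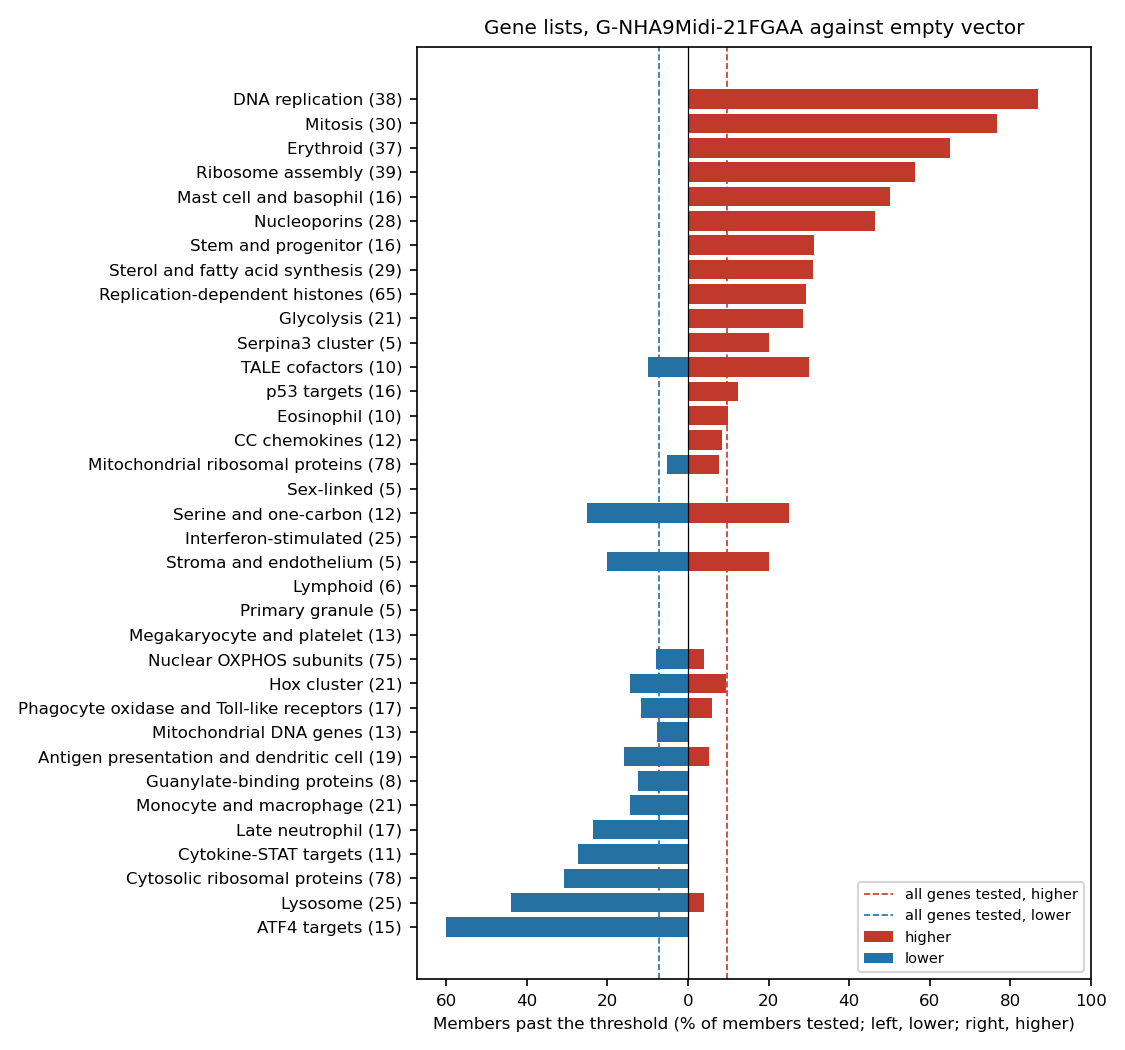
Share of tested members (x, %) of 35 gene lists that were higher (red, to the right) or lower (blue, to the left) with G-NHA9Midi-21FGAA than with the empty vector, with the number tested in parentheses. Dashed lines are the shares of all genes tested, 9.59% higher and 7.32% lower. DNA replication, mitosis and erythroid genes reach furthest right, and ATF4 targets and lysosomal genes furthest left.

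Among the 10 largest falls by the same rule were Cox6a2 (chr7:128205435-128206387 on mm10), a subunit of cytochrome c oxidase typical of muscle, and P2rx3 (chr2:84998583-85037462), an ATP-gated ion channel of sensory neurons. Cox6a2 was at 10.9, 38.1, 19.7, 19.7 and 4.07 CPM in the empty vector and at 0.265, 2.20, 0.430, 0.256 and 0.242 CPM with G-NHA9Midi-21FGAA, a log2 change of -4.76 ± 0.85 (edgeR adjusted p = 0.00058). P2rx3 was at 6.84, 16.9, 8.90, 13.1 and 3.73 CPM and at 0.0963, 1.77, 0.333, 0.355 and 0.178 CPM (-4.17 ± 0.77). In both genes replicate 2 was the highest library of either condition, and no library overlapped. Both share exon bases with a gene on the other strand (70 with Itgad and 51 with Ssrp1), and since the strand used in counting is not stated, reads of the partner could be included. Add2, Arhgap20, Cd34, Fn1, Angpt1, Atf5, Ccna2, Ctsa, Lamp1, Mpo and Prtn3 share exon bases with a gene on the other strand too. So do Hoxb3 (2250 bases with Hoxb3os), Meis1, Hoxa7 and Alas2, among others. Of 166 genes followed, 53 share exon bases with another gene on either strand.

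Of the 10 largest falls, 4 were the predicted genes Gm26870, Gm10801, Gm10800 and Gm21738. Such models have near-identical copies, and the exons of Gm26870 overlap those of 6 other predicted genes, so the counts of single models are uncertain. Gm10800 was at 473, 1365, 382, 1266 and 304 CPM and at 143, 13.5, 38.4, 40.9 and 52.4 CPM (-3.72 ± 1.07). Replicates 2 and 4 of the empty vector were far above its other libraries, and replicate 1 of the construct was far above its other 4.

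Fn1, the extracellular matrix protein fibronectin, fell from 22.2, 67.2, 36, 73.4 and 34.8 CPM to 16.2, 8.48, 7.01, 8.03 and 8.23 CPM (-2.29 ± 0.41). Retnlg, a resistin-like protein of neutrophils, fell from 9.57, 14, 14.4, 17.5 and 16 to 3.30, 5.11, 2.35, 1.38 and 1.87 CPM (-2.35 ± 0.40), and Mgl2, a lectin of macrophages and dendritic cells that are exposed to interleukin-4, from 137, 258, 184, 199.9 and 120.3 to 21.1, 71.9, 44.1, 22.5 and 60.4 CPM (-2.03 ± 0.35). Entpd3, an ectonucleotidase, fell by 2.13 on the log2 scale, from a range of 22.5 to 40.6 CPM to a range of 4.50 to 11.5 CPM. All 4 are secreted or lie at the cell surface.

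Of 17 genes of late neutrophils, 4 (23.5%) were lower and none higher, and 16 had a log2 fold change below 0. Csf3r, the receptor of G-CSF, fell from 34, 36.7, 35.4, 42.9 and 32.6 CPM to 18.5, 19.6, 13.6, 12.4 and 8.21 CPM (-1.33 ± 0.23; edgeR adjusted p = 0.00046), and the collagenase Mmp8 from a range of 1725 to 1877 CPM to a range of 560.1 to 1083 CPM (-1.10), each with no overlap. Chil3 (-0.87) passed with overlapping ranges and lost its call in 11 of 22 alternatives. Granule genes Ltf (-0.04), Camp (0.09), Ngp (-0.35) and Lcn2 (-0.37) and the calprotectin subunits S100a8 (-0.10) and S100a9 (-0.25) did not pass. In monocytes and macrophages 3 of 21 were lower (14.3%, beside 7.32% of all genes) and none higher. With the replicate block, 6 were lower and 1 higher. Among the 3 were F13a1 (320.3 to 371 and 148 to 245 CPM, -0.85) and Apoe (-0.90). Adgre1 (-0.23), Csf1r (-0.05) and Lyz2 (-0.58) did not pass.

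Lysosomal genes were lower in 11 of 25 (44.0%) and higher in 1, and 10 members were lower with no overlap (5.49% of all genes were). Summed, they were at 36072, 48004, 50377, 37786 and 36217 CPM in the empty vector and at 29029, 28128, 28271, 27370.4 and 26591 CPM with the construct, with all construct libraries below all others and close together. A part of this sum was Psap, the precursor of the saposins that assist lipid breakdown. It was at 13067, 17938, 19659.9, 14171 and 13605 CPM and 9370.2, 9627, 8975, 7681 and 7940.4 CPM (-0.85 ± 0.22). Ctss, the cathepsin of antigen-presenting cells, fell by 0.75, Ctsa by 0.57 and the membrane protein Lamp1 by 0.43. Gusb was higher (0.34). Macrophages hold many lysosomes, and the monocyte and macrophage list, of which Cd68 (-0.54) and Gpnmb (-0.38) are lysosomal, summed to 34678 to 48099 CPM in the empty vector and 24602 to 30224 CPM with the construct. Its part in the fall of lysosomal genes was not tested.

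In antigen presentation and dendritic cells, Irf4 (43.5 to 57.5 CPM against 29.8 to 36.4 CPM, -0.62) and Irf8 (-0.42), factors of these lineages, fell with Mgl2, and Ccl17 rose. Of 19 genes tested, 3 were thus lower (15.8%, beside 7.32% of all genes) and 1 higher (5.26%, beside 9.59%). The MHC class II genes H2-Aa (-0.18), H2-Ab1 (-0.21) and Cd74 (-0.06) did not pass. Among 11 targets of cytokine-activated STAT factors, Pim1 (421 to 547 CPM against 292 to 365 CPM, -0.52), Arg1 (-0.68) and the low Retnla (0.144 to 1.19 CPM against 0.0127 to 0.157 CPM) were lower, and Cish (-0.28), Socs2 (0.12) and Socs3 (0.06) did not pass. These 3 calls are 27.3% of the STAT list, beside 7.32% of all genes, but its median was 0.06 and 6 of its 11 fold changes were above 0. The call of Arg1 was lost in 12 of 22 alternatives. Tlr7 (-0.61) was lower and Tlr1 (0.41) higher among 17 genes of the phagocyte oxidase and Toll-like receptors, and these calls were lost in 12 and 9 of 22 alternatives. Of that list 2 were lower in all (11.8%, beside 7.32% of all genes) and 1 higher (5.88%, beside 9.59%). The count of lower genes was 5 under the replicate block and 1 or none when any single library other than replicate 1 of the construct was left out.

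ATF4 drives genes of amino acid supply and stress when translation is held back by a lack of amino acids or by misfolded protein. Of 15 genes of this list, 9 (60.0%) were lower and none higher, with a median of -0.79 on the log2 scale. Atf4 itself was at 451, 496, 436, 374 and 297 CPM in the empty vector and 311, 294, 260.1, 231 and 221 CPM with the construct (-0.64 ± 0.18). Asns, the asparagine synthetase, fell from 149, 210.3, 166, 142 and 71.9 to 41.3, 101, 56.5, 48.6 and 46.1 CPM (-1.33 ± 0.36), and Atf5 from 61.3, 122, 88.8, 84.4 and 63.3 to 29.1, 46, 31.3, 24.8 and 28.9 CPM (-1.39 ± 0.26; edgeR adjusted p = 0.00088). Replicate 5 of the empty vector was its lowest library for Atf4 and Asns, and it overlapped the construct in both, while Atf5 did not overlap. Sesn2 fell by 0.79 with no overlap. The others that fell were Cth (-1.91), Chac1 (-1.82), Trib3 (-1.44), Ddit3 (-0.93) and Nupr1 (-0.81), whereas the amino acid carriers Slc7a11 (-0.15), Slc3a2 (-0.12) and Slc7a5 (0.00) did not pass. The count stayed between 7 and 9 in all alternatives other than a minimum log2 fold change of 1, which left 5.

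Serine and one-carbon metabolism split by enzyme. Phgdh, the first step of serine synthesis, fell from a range of 77.5 to 156 CPM to a range of 53.4 to 89 CPM (-0.88) and the mitochondrial Mthfd2 from a range of 82.2 to 155 CPM to a range of 55.8 to 82.6 CPM (-0.93), both known to respond to ATF4. The cytosolic Mthfd1 (0.73) and mitochondrial Mthfd1l (0.51) rose. In all, 3 of 12 genes were lower and 3 higher.

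No gene passed in edgeR in the lists of interferon-stimulated genes (0 of 25), primary granule genes (0 of 5), lymphoid genes (0 of 6) or platelet genes, as above. Ddx58 was at 55.9 to 79.4 and 48.1 to 101 CPM. Il7r, the receptor of interleukin-7, made up nearly all of the lymphoid sum, at 272 to 381 and 221 to 283 CPM. Gbp8 was the sole guanylate-binding protein to fall (11.2 to 49.9 CPM against 4.64 to 11.6 CPM, -1.93). Of 16 p53 targets Gtse1 (0.71), which is also a gene of G2 phase, and Aen (0.39) rose (12.5%, beside 9.59% of all genes). Without replicate 4 or 5 of the empty vector or 3 of the construct, 1 p53 target rose. Without replicate 5 of the construct 2 guanylate-binding proteins were lower. Among genes of stroma and endothelium Kdr fell by 0.80 and Pdgfrb rose by 1.11, and of 13 genes of mitochondrial DNA mt-Nd6 fell by 0.70 (7.69% lower, beside 7.32% of all genes). These 3 calls were lost under 9, 6 and 9 of the 22 alternatives, and with the replicate block 2 genes of mitochondrial DNA were lower and 1 higher. At an unadjusted p under 0.05, 2 interferon-stimulated genes, 1 lymphoid gene and no primary granule gene passed, and with DESeq2 these counts were 0, 1 and 0.

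G-NHA9Midi-21FGAA was next set against 3 constructs directly. G-NHA9-ΔDNA (G-NHX9-DDNA in the labels) keeps all FG motifs of the full-length fusion and carries changes in the homeodomain that weaken DNA binding. As a full-length construct it also holds the N-terminal stretch and the GLEBS domain of NUP98, a site of protein-protein interactions. The study left both out of G-NHA9Midi and G-NHA9Midi-21FGAA. These comparisons share the G-NHA9Midi-21FGAA libraries with each other and with the one above. Here 157 of 17166 genes (0.915%) passed, 24 (0.14%) higher and 133 (0.775%) lower in G-NHA9Midi-21FGAA. In a fit blocked by replicate number 310 passed. The count was 98 and 91 without replicates 2 and 5 of G-NHA9-ΔDNA and 94 and 78 without replicates 3 and 4 of G-NHA9Midi-21FGAA.

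The primary granule genes, which neutrophil and monocyte precursors switch on first, were among these falls. All 5 were lower with G-NHA9Midi-21FGAA, where 0.775% of all genes were, although against the empty vector none had passed. Their sum was 281, 429.8, 458, 262 and 186 CPM with G-NHA9Midi-21FGAA, 1174, 1513, 1041, 708 and 1348 CPM with G-NHA9-ΔDNA and 583, 126, 411, 481 and 212 CPM with the empty vector. Mpo, myeloperoxidase, was at 98.1, 132, 159.7, 62.6 and 61.3 CPM against 424, 500.3, 366, 268 and 611 CPM with G-NHA9-ΔDNA, a log2 difference of -2.08 ± 0.39 (edgeR adjusted p = 0.0032). Elane and Prtn3, serine proteases, differed by -2.02 ± 0.44 and -1.76 ± 0.38, Ctsg by -1.47 ± 0.29 and Ms4a3 by -1.67 ± 0.33. The ranges of Mpo, Elane, Prtn3, Ctsg and Ms4a3 did not overlap between these conditions.

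Hoxa9 was also lower than with G-NHA9-ΔDNA, where it was at 17.3, 20.3, 17.1, 16.9 and 23 CPM, a log2 difference of -4.11 ± 0.37 (edgeR adjusted p = 2.1e-08). Its mean in the empty vector was 0.975 CPM, although the paper does not place G-NHA9-ΔDNA among the constructs that raised Hox genes. The constructs all carry a HOXA9 homeodomain, altered in G-NHA9-ΔDNA. Whether reads of the fusion transcripts were counted at Hoxa9 was not tested, here or in the other comparisons. The Hoxa9 values may therefore not be those of the cells' own gene alone. Cd34 was higher, at 71, 125, 146, 165 and 168 CPM against 44.1, 65, 55.5, 66.3 and 48 CPM (1.27 ± 0.18), and so was Ddc, against 4.65, 5.95, 7.91, 6.73 and 4.68 CPM (1.11 ± 0.23). Zfp945, a zinc finger gene (0.84 ± 0.14), and Snx7, a sorting nexin (0.54 ± 0.13), were other rises with no overlap. Of 17 late neutrophil genes 1 was lower, with a median of -0.69 and 10 genes at an unadjusted p under 0.05. Their sums were 11807.6 to 20057.6 CPM against 21651.6 to 27722.6 CPM with G-NHA9-ΔDNA. Of 16 mast cell genes 1 was higher, with a median of 0.43 and 7 at that unadjusted p. None of the erythroid, DNA replication, mitosis, histone or cytosolic ribosomal protein genes passed in edgeR here, with list medians of 0.25, -0.08, -0.10, -0.17 and -0.11 and, at an unadjusted p under 0.05, with 4, 1, 0, 3 and 0 genes. A call that misses the threshold does not show equal levels: for Alas2 the difference was 0.04 ± 0.51 and for Slc4a1 0.36 ± 0.53.

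G-NHA9-21FGAA (G-NHX9-21FGAA) is the full-length fusion with the same FG pairs replaced, so that it keeps FG motifs in its N-terminal stretch. It also keeps the GLEBS domain, so it differs from G-NHA9Midi-21FGAA in more than FG motifs. Between these constructs 517 genes (3.01%) passed, 176 (1.03%) higher and 341 (1.99%) lower in G-NHA9Midi-21FGAA, and the blocked fit gave 1033. The count was 296 and 305 without replicates 3 and 5 of G-NHA9-21FGAA, and 248, 318 and 210 without replicates 1, 3 and 4 of G-NHA9Midi-21FGAA. The 5 primary granule genes were again all lower. Mpo was at 352, 346, 408, 352 and 409 CPM with G-NHA9-21FGAA (-1.86 ± 0.38; edgeR adjusted p = 0.0045) and Ctsg at 219, 255, 256, 209 and 199 CPM (-1.49 ± 0.29), and neither overlapped the levels with G-NHA9Midi-21FGAA. Hoxa9 was lower by 1.57 on the log2 scale and overlapped, since replicates 4 and 5 of G-NHA9-21FGAA were at 1.00 and 1.53 CPM.

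Among genes of at least 5 CPM whose libraries did not overlap, the largest falls against G-NHA9-21FGAA were in Clstn3, a calsyntenin (1.61, 1.40, 1.43, 1.97 and 2.99 CPM against 5.04, 8.70, 5.26, 10.1 and 14.9 CPM, -2.22 ± 0.28), and Abca4, an ATP-binding cassette transporter (-1.94 ± 0.31), followed by Mpo and Gcsam (-1.80 ± 0.37). By the same rule, the largest rises were Ddc (1.26 ± 0.23), the lipase-family gene Lipn (1.19 ± 0.32), Id3, an inhibitor of helix-loop-helix factors (1.06 ± 0.22), and Ptgfrn (0.99 ± 0.18). Cd34 was at 184, 189, 187, 222 and 247 CPM with G-NHA9-21FGAA, above every library of G-NHA9Midi-21FGAA, and the difference (-0.61 ± 0.18; edgeR adjusted p = 0.057) did not pass. None of the 37 erythroid genes and none of the 38 DNA replication genes was called in edgeR, and 2 and 1 had an unadjusted p under 0.05.

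G-NHA9Midi, the same construct with its FG motifs, differed in 7416 genes (43.2%), 3597 (21%) higher and 3819 (22.2%) lower in G-NHA9Midi-21FGAA. Erythroid genes were higher in 33 of 37, with a median of 3.35 on the log2 scale. Epb42 was at 4.16, 11.2, 11.4, 9.88 and 18 CPM with G-NHA9Midi-21FGAA and at 0.120, 0.0300, 0, 0 and 0.0412 CPM with G-NHA9Midi, near or under the limit of 3 counts, so that no fold is given. Slc4a1 was at 29.7, 78.3, 75.5, 85 and 107 CPM and 0.179, 1.14, 0.102, 0.776 and 0.474 CPM, a log2 difference of 7.23 ± 0.75 (edgeR adjusted p = 1.9e-09). All 16 mast cell genes and all 13 platelet genes were higher as well, with medians of 2.73 and 3.33. Where G-NHA9Midi is near 0 the fitted values behind these medians are not bounds.

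Lower with G-NHA9Midi-21FGAA were all 78 cytosolic ribosomal protein genes (median -0.90), 13 of 15 ATF4 targets (-1.03), all 5 primary granule genes (-1.72) and 14 of 21 Hox genes. Hoxa9 was at 30.6, 44.4, 37.8, 25.5 and 34.5 CPM with G-NHA9Midi (-4.98 ± 0.38; edgeR adjusted p = 2.7e-12). Tmem47, a transmembrane protein, was at 0.0241, 0.0364, 0, 0 and 0.0255 CPM with G-NHA9Midi-21FGAA and 12.8, 20.6, 14.1, 6.63 and 9.74 CPM with G-NHA9Midi. Tnfsf11, the cytokine RANKL, was at 0.0722, 0.109, 0.0587, 0 and 0.153 CPM and 12, 20, 12.8, 9.36 and 9.29 CPM. Both were near 0 in every G-NHA9Midi-21FGAA library.

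**Figure D5:**
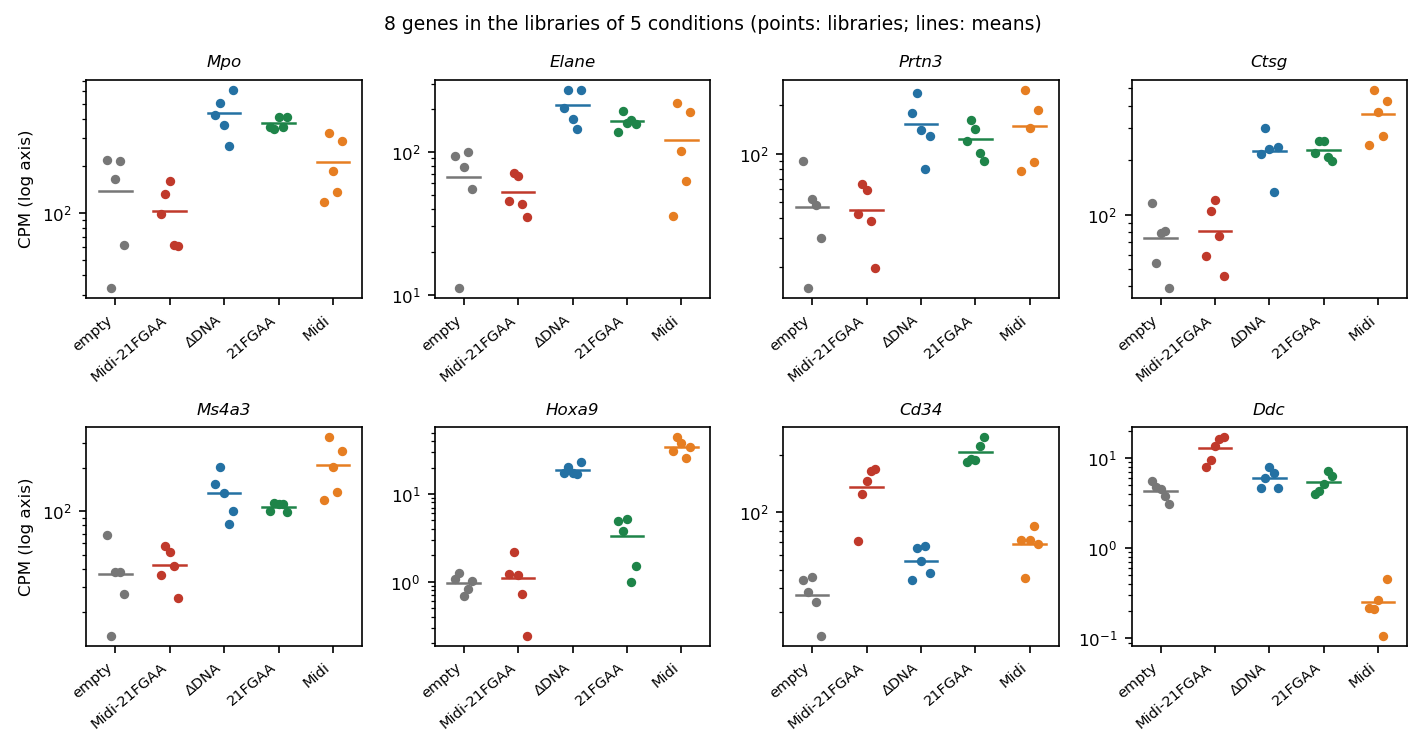
Levels of the 5 primary granule genes, Hoxa9, Cd34 and Ddc (y, CPM on a log axis) in the 5 libraries of the empty vector, G-NHA9Midi-21FGAA, G-NHA9-ΔDNA, G-NHA9-21FGAA and G-NHA9Midi (x). Points are libraries and lines their means. The granule genes with G-NHA9Midi-21FGAA overlap the empty vector and lie below G-NHA9-ΔDNA and G-NHA9-21FGAA, and Ddc is highest with G-NHA9Midi-21FGAA.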

How the data were processed

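RNA of 35 libraries, 5 for each of 7 constructs, was sequenced after a stranded total RNA preparation. The authors deposited whole-number read counts per gene. Their processing notes name STAR 2.7.0d, HTSeq 0.11.2, DESeq2 and the build mm10, and the strand used in counting is not given in the sources used here. Genes were named by GENCODE M21 (49326 of the identifiers, 99.3%, matched without their version). Library totals, 31559914 to 75810659 counts for the 10 libraries described, limit precision: 3 counts were worth 0.0382 to 0.0996 CPM, which covers counting error only. No column of another series was present (0 columns).

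Samples were grouped by the genotype label. The counts were tested with edgeR 4.0.16 (R 4.3.3; limma 3.58.1) by its quasi-likelihood test in 1 fit of all 35 libraries with TMM scaling and edgeR's filter on low counts, which left 17166 of 49671 genes, and p-values were adjusted over all genes tested (Benjamini-Hochberg, threshold 0.05). No replicate block was used, so the SEs and adjusted p-values of this fit leave out the pairing described next. Libraries with the same number deviated together from their condition means, with correlations of 0.124 to 0.331 against the empty vector, 0.165 to 0.540 against G-NHA9-ΔDNA and 0.143 to 0.560 against G-NHA9-21FGAA, so that by the rule of all 5 pairs over 0.1 the numbers pair these samples. Against G-NHA9Midi 4 of 5 pairs did. The pairing was incomplete: against the empty vector, G-NHA9-ΔDNA and G-NHA9-21FGAA, only 3 of 5 G-NHA9Midi-21FGAA libraries correlated best with their own number. Against G-NHA9Midi 4 did. Alternatives were DESeq2 1.42.0, other scalings and filters, the block, a covariate for sex-linked genes, a fit to both conditions alone, a minimum log2 fold change of 1, the empty vector libraries labelled 8 weeks alone and the leaving out of each library. Leaving out both libraries numbered 1, and the block in the fit to both conditions alone, were added after the data were seen.

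Genes were named by a rule: the 10 largest rises and the 10 largest falls among genes called, with a mean of at least 5 CPM and no overlap between conditions, up to 4 called members of each list by abundance (the 2 most abundant where none was called), and a set that is always given (Hoxa9, Nup98, tested Hox genes, Meis1, Pbx3, Flt3, Rps12, Rpl12 and Xist). Other list members, and Elane, Prtn3, Ms4a3, Epha3, Dmtn, Trim10 and the genes of the direct comparisons, were chosen after their values were seen. The comparison and the gene lists were chosen with earlier results of these data known. Some genes that the rule names are not reported here. The test was checked on simulated counts. Promoter sequences are those of RefSeq on GRCm38.p6.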

Additional observations from a re-analysis of the deposited data

Results flagged for a closer look

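In 128 groups of 5 libraries tested for a library far from the others, 10 had one by Dixon's criterion, where chance gives about 5% of groups. In the empty vector, the summed level of the list of nucleoporins and Xpo1 was 2300 CPM in replicate 1, with the nearest library at 2020 CPM. With G-NHA9Midi-21FGAA, replicate 1 was the highest library for Gm26870 (2.53 CPM), Gm10801 (116 CPM), Gm21738 (8.09 CPM), Fn1 (16.2 CPM) and the lymphoid sum (284 CPM), with the nearest libraries at 0.888, 36.0, 2.31, 8.48 and 236 CPM. Replicate 2 was the highest for P2rx3 (1.77 CPM) and Cox6a2 (2.20 CPM), with the nearest at 0.355 and 0.430 CPM. Replicate 5 was the highest for the sum of interferon-stimulated genes (1070 CPM against 495 CPM), and replicate 4 for that of sterol and fatty acid synthesis (6230 CPM against 5380 CPM).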

How the results depend on the processing

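Over the 166 genes followed, 3178 gene and setting pairs kept their side of the threshold, 390 lost the call and 34 gained one. No called value changed sign, and in 52 pairs of 17 genes that were not called, such as Hoxa9, Hoxa10 and Xist, the sign turned. The 10 largest rises and 10 largest falls kept their calls in all 22 alternatives. Against the empty vector 2903 genes passed, with 3939 without TMM factors, 2907 with RLE size factors, 2260 without a filter, 2928 at a mean of at least 1 CPM, 3977 with the sex-linked covariate, 3263 with DESeq2, 2536 in the fit to both conditions alone and 3098 without both libraries numbered 1. Only 1456 passed with the empty vector libraries labelled 8 weeks alone, where 3 libraries stand against 5. The block on the replicate number gave 4352 against the empty vector, 310 against G-NHA9-ΔDNA and 1033 against G-NHA9-21FGAA, and it moved no other total by over 1.5 times. Against G-NHA9-ΔDNA (157) the count was 244 with the sex-linked covariate, 70 in the fit to both conditions alone, 266 in that fit with the block and 298 with DESeq2, and against G-NHA9-21FGAA (517) it was 872, 236 and 1206 in the first 3 of these. A minimum log2 fold change of 1 gave 599 genes against the empty vector, 2907 against G-NHA9Midi, 97 against G-NHA9-ΔDNA and 218 against G-NHA9-21FGAA. Leaving out single libraries gave 2009 to 3231, 6653 to 7280, 78 to 198 and 210 to 701 genes in the same order. Apart from the smaller number of samples or the stricter threshold of some settings, the cause of these shifts was not tested. Genes at a few counts, such as Hoxa6 and Hoxb8, are limited by depth.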
